A study of Mus musculus with 11 samples.

Results

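Immune cells of the lung were compared between mice that carry an mTert allele of p21 and p21 heterozygotes. The immune compartment was taken as all cells with at least 1 UMI (unique molecular identifier, a counted RNA molecule) of Ptprc, which encodes the leukocyte antigen CD45. It held 35006 of the 51647 cells that passed the filters in the 8 libraries compared, and the whole series had 69267 such cells in 11 libraries. Within it, lineages were gated by at least 1 UMI of a marker gene: Cd3e (T cells, 8872 cells), Cd79a (B cells, 11956), Ncr1 (natural killer cells, 1043), Csf3r (mainly neutrophils, 7021), F13a1 (a gene of classical monocytes and some macrophages, 2334), Treml4 (non-classical monocytes, 3465) and C1qa (macrophages rich in complement C1q, 1733).

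The series profiled dissociated whole lung of mice on the 10x Genomics droplet platform, reading the 3′ ends of transcripts of single cells, with no sort for immune cells. The 5 p21mTert libraries carry the genotype label p21 mTert (+/mTert), and the 3 p21Het libraries the label p21 heterozygotes (+/-). As the labels write them, both genotypes have 1 wild-type copy of p21, and they differ in the other copy. Mice were 18 months old by their age label, except p21Het_1 at 19 and p21mTert_1 at 20 months, although the titles of these libraries also give 18. These 2 libraries and the only wild-type library (WT, +/+, 18 months, shown as a value without a test) belong to an earlier deposit by their accession numbers, so that age and deposit cannot be told apart. The labels state neither the structure of the mTert allele nor whether a library pools animals, and p-values therefore measure the spread between libraries. A UMI of Cdkn1a or Tert cannot be assigned to either allele.

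Cdkn1a encodes p21, an inhibitor of cyclin-dependent kinases that p53 induces after DNA damage and that arrests the cell cycle. It is a marker of senescent cells and is also expressed in many resting and differentiated myeloid cells. Tert encodes the catalytic subunit of telomerase, which adds telomeric repeats to chromosome ends and is kept low in most adult cells of the body. Lymphocytes are known for inducing it when they are activated. The series title names mTert induction in p21-positive cells, so the comparison asks where in the immune compartment Tert transcripts differ between the genotypes, how they follow Cdkn1a, and which other genes and cell shares differ.

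The sequences below are the 250 bases before the annotated starts of the 2 genes, shown as background. Because the labels do not give the structure of the mTert allele, whether its transcripts start after any of these windows is not known. They are from RefSeq (GRCm38.p6), on the plus strand, 5′ to 3′. Capitals mark the motifs searched on both strands: ACATGT, the core of many p53 sites, the TATA-like TATAA, and the GC box GGGCGG. The window before the first Cdkn1a start is chr17:29090729-29090978, that before the second, inside the annotated gene, is chr17:29093519-29093768, and that before the Tert start is chr13:73626661-73626910.
Cdkn1a start 1: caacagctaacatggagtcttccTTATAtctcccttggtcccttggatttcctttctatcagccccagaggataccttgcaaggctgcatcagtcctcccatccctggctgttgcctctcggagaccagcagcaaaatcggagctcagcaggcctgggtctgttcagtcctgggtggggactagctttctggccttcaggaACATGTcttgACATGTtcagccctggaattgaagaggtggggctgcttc
Cdkn1a start 2: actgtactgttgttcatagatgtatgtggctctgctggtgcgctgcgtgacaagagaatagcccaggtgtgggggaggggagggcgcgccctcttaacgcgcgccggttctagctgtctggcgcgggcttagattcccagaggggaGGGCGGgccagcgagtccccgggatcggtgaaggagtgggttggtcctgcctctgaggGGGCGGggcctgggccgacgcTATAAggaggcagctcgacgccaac
Tert start: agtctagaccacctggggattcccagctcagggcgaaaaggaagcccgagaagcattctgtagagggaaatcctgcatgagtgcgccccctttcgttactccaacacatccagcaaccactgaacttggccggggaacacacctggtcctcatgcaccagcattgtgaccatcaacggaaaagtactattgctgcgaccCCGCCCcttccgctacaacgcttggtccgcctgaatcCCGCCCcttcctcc
Upstream of the first Cdkn1a start there were 2 ACATGT matches and 1 TATAA match, here as TTATA. Before the second start there were 1 TATAA and 2 GGGCGG matches. The Tert window had 2 GGGCGG matches, both as CCGCCC, and 0 of the other motifs. Of 32851 promoter windows of this length, 4.58% hold ACATGT, 22.8% TATAA and 32.7% GGGCGG. A match describes letters in the window, not a bound site.

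The libraries held 5686 to 10525 barcodes and 47078851 to 85988955 UMIs, and their immune cells 25758725 to 44659351 UMIs. The median immune cell had 4446 to 6029 UMIs in p21mTert and 4334.5 to 6644 in p21Het. Pairs of libraries shared 6 to 20 barcodes. The median mitochondrial share of kept cells was 6.30% and 6.46% in the earlier deposit and 3.14% to 4.28% in the later one. Every gate except F13a1 had all 10 markers of its cell type above the level in all immune cells, and the F13a1 gate had 8 of 10 classical monocyte markers, whose summed level was 1.45 times that in all immune cells. C1q macrophage markers in the F13a1 gate summed to 7172 to 13160 CPM in p21mTert and 4066 to 7841 in p21Het, against 1532 to 2230 and 1548 to 2667 in all immune cells, so this gate is not a pure set of classical monocytes. Gates overlapped: 9.91% to 23.1% of immune cells of a library were in 2 or more gates, and 8.92% to 25.3% in none. The myeloid gates shared more: on average 47.9% (p21mTert) and 48.1% (p21Het) of F13a1 cells and 52.6% and 52.6% of Treml4 cells held a Csf3r UMI, so results of these gates rest in part on the same cells. Free RNA also puts UMIs into cells that do not express a gene. Of endothelial cells, 11.7% on average in p21mTert and 12.7% in p21Het held a Ptprc UMI, or 5.58% and 5.47% after thinning to 1000 UMIs. Values below are listed in order of replicate, p21mTert_1 to p21mTert_5 and p21Het_1 to p21Het_3, and CPM is the usual depth-scaled count, the UMIs of a gene scaled to the summed UMIs of its population in that library.

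Tert transcripts were higher in immune cells of every p21mTert library than in those of any p21Het library. The levels were 1.89, 2.42, 2.12, 2.00 and 2.02 CPM in p21mTert and 0.538, 0.873 and 0.418 CPM in p21Het. The p21mTert libraries lay close together, and the 2 groups did not overlap. Of all genes tested in immune cells, 3.49% were likewise higher without overlap and 1.66% lower. The Tert levels rest on 329 and 72 UMIs in all. About 1.196% to 1.75% of immune cells held a Tert UMI in p21mTert and 0.321% to 0.787% in p21Het. The means were 2.09 ± 0.20 (SD, n = 5) and 0.610 ± 0.236 CPM (SD, n = 3), and WT had 0.937 CPM. On the log2(CPM + 1) scale the difference was 0.95 (2-sided exact permutation p = 0.0179, the smallest that 5 against 3 libraries can give, and 0.0179 adjusted over the tests of Tert and Cdkn1a). Among the 4 p21mTert and 2 p21Het libraries of the later deposit it was 0.94, with the smallest p that exact permutation allows there, 0.0667. A pseudocount of 0.1 gave 1.67 and one of 5 gave 0.34, with the same p. In the edgeR quasi-likelihood test over all genes, the log2 fold change of Tert was 1.72 (SE 0.28), and it was not called (adjusted p = 0.111).

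Among the 7 gates, Tert was higher in p21mTert mainly in the myeloid ones. In the Csf3r gate Tert was at 1.39, 4.63, 4.29, 2.37 and 2.45 CPM in p21mTert, against 0.173, 0.205 and 0.0610 in p21Het. Here 81 UMIs in p21mTert stand against 3 in p21Het, a pooled ratio of 26.9 with an exact 95% counting interval from 8.90 to 133. The Treml4 gate had 2.49, 4.17, 4.203, 3.32 and 2.00 CPM against 0, 0.339 and 0.129. That was 64 UMIs against 3, a ratio of 18.6 (6.08 to 92.5). The F13a1 gate had 1.59, 4.08, 3.85, 2.24 and 3.08 CPM against 0, 1.83 and 0.098, with 38 UMIs against 6 and a ratio of 8.31 (3.48 to 24.0). The C1qa gate had 27 UMIs against 5, a ratio of 4.95 (1.88 to 16.5). The libraries did not overlap in the Csf3r, Treml4 and C1qa gates, whereas in the F13a1 gate p21Het_2 reached above p21mTert_1. Of the genes edgeR tested, 2.03% (Csf3r), 2.37% (Treml4) and 0.85% (C1qa) were likewise higher without overlap. In the other direction these shares were 0.577%, 1.30% and 1.85%. Permutation p-values adjusted over 14 tests (2 genes in 7 gates, chosen after seeing the data) were 0.05 in the Csf3r, Treml4 and C1qa gates and 0.0833 in the F13a1 gate. In the edgeR test over all genes Tert was not called in the Csf3r (adjusted p = 0.338) or Treml4 gate (0.134). It did not pass the low-count filter of that test in the F13a1, C1qa and Ncr1 gates, which therefore have no edgeR result for Tert. All these intervals cover counting error only.

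T and B cells already had Tert without the mTert allele. The Cd3e gate had 1.59, 1.12, 1.57, 0.779 and 1.65 CPM in p21mTert and 1.30, 1.503 and 1.09 in p21Het, and the ranges overlapped. The pooled ratio was 1.00, with a counting interval from 0.625 to 1.64 (56 UMIs against 28), and WT had 1.93 CPM. In the Cd79a gate the ratio was 1.85 (1.17 to 3.04, 75 UMIs against 25, adjusted permutation p = 0.188). The Ncr1 gate had 2 Tert UMIs in p21mTert and 0 in p21Het, too few to compare at this depth. For a test of the difference between lineages, cells with a UMI of a myeloid gate gene and none of a lymphoid one were summed, and the reverse. Tert in these myeloid cells was at 1.90, 4.29, 3.396, 2.84 and 2.82 CPM against 0, 0.771 and 0.095 (129 UMIs against 11, ratio 11.3, 6.09 to 23.1). The lymphoid cells had 2.04, 1.11, 1.58, 0.924 and 1.40 CPM against 0.814, 1.21 and 1.14 (115 UMIs against 46, ratio 1.33, 0.935 to 1.91). In p21Het, Tert was thus lower in myeloid than in lymphoid cells in 3 of 3 libraries. Cells in no gate or in gates of both kinds enter neither sum. They hold the rest of the 329 and 72 Tert UMIs of immune cells, and Tert in them was not tested. The myeloid minus lymphoid difference was larger in p21mTert than in p21Het by 1.45 on the log2 scale (exact permutation p = 0.0179, the smallest possible, a test chosen after seeing the data). It lay between 1.31 and 1.65 without any one library, with p = 0.0571 (exact permutation) without p21mTert_2, p21mTert_3, p21mTert_4 or p21mTert_5. With a pseudocount of 0.1 in place of 1 it was 3.21. Cells without Ptprc had 3.48 CPM on average in p21mTert and 1.09 in p21Het, and the genotype difference in immune cells was not distinguishable from theirs (-0.11, exact permutation p = 0.696).

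**Figure D1:**
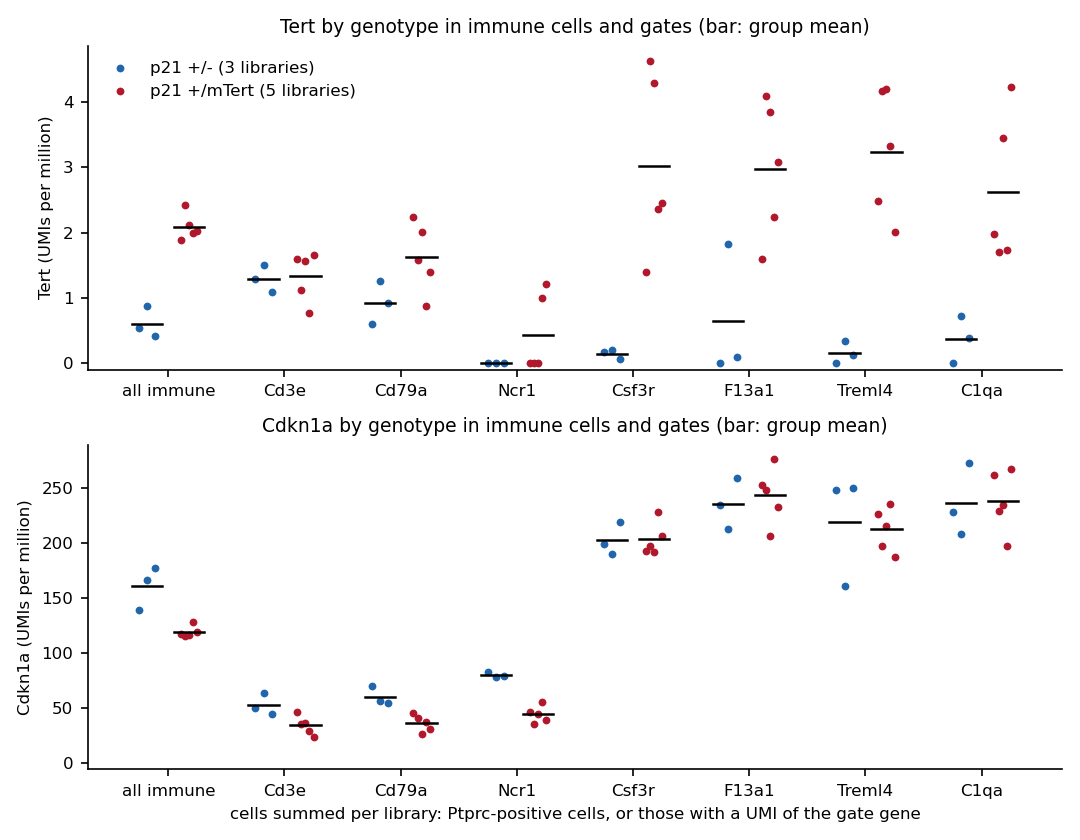
Tert (top) and Cdkn1a (bottom) in CPM, in all immune cells and in the 7 gates. Points are libraries, 3 p21 +/- in blue and 5 p21 +/mTert in red, and bars are group means: in the Csf3r gate the red Tert points lie at 1.39 to 4.63 and the blue at or below 0.205.

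Cdkn1a itself was lower in the summed immune cells of p21mTert and, as separate populations, in the Ncr1 and Cd79a gates. In all immune cells the levels were 117.5, 115.1, 116.0, 128.4 and 119.0 CPM against 139.4, 166.9 and 177.5, without overlap, and 1.66% of all genes tested were lower in this way. The log2 difference was -0.43 (exact permutation p = 0.0179, adjusted 0.0179), -0.52 in the later deposit, and the edgeR log2 fold change was -0.49 (SE 0.12, adjusted p = 0.293, not called). WT had 137.1 CPM. Since these are sums over cells of many types, they do not by themselves tell fewer cells of a Cdkn1a-rich type from less Cdkn1a RNA per cell. Cells of lymphoid gates alone held 2363 of the 18619 Cdkn1a UMIs of immune cells in p21mTert and 1949 of 18818 in p21Het, and those of myeloid gates alone 9589 and 9100. The latter cells numbered 1105, 1220, 683, 848 and 883 in p21mTert and 929, 1216 and 2374 in p21Het. In p21Het_3 they held 5064 of the 7216 Cdkn1a UMIs of immune cells. Alveolar macrophage markers in immune cells summed to 1554 to 4683 CPM in p21mTert and 2513 to 12181 in p21Het, overlapping. The part of this makeup in the Cdkn1a difference was not tested.

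Within gates, Ncr1 cells had 46.0, 35.1, 44.3, 55.7 and 38.8 CPM of Cdkn1a against 82.9, 77.8 and 79.2. The Cd79a gate had 45.1, 40.4, 26.4, 37.4 and 30.6 against 70.0, 56.3 and 54.6. Neither pair of groups overlapped, and both had a permutation p of 0.05 after adjustment over the 14 tests. Of all genes in the Ncr1 gate, 1.48% were lower without overlap and 1.25% higher. In the Cd79a gate these shares were 1.33% and 1.32%. In the edgeR test over all genes neither was called (adjusted p = 0.659 in the Ncr1 and 0.140 in the Cd79a gate). The Cd3e gate had 45.9, 35.3, 36.4, 29.1 and 23.5 CPM against 49.8, 63.5 and 44.0, with p21mTert_1 inside the p21Het range (adjusted permutation p = 0.143). In cells of lymphoid gates alone Cdkn1a was at 21.7 to 33.9 CPM in p21mTert and 36.4 to 53.2 in p21Het, without overlap (log2 difference -0.62, exact permutation p = 0.0357). In myeloid cells Cdkn1a was higher than in lymphoid cells by more than the genotype difference: the pooled myeloid gates had 220.7 to 245.6 CPM in p21mTert and 201.0 to 240.7 in p21Het, and the ranges overlapped (log2 difference 0.04, exact permutation p = 0.643). WT stood above both groups there, at 334 CPM, and in the C1qa gate at 526 CPM. The myeloid minus lymphoid difference of Cdkn1a between genotypes was 0.66 (exact permutation p = 0.0536). It was 0.83 without p21Het_3 (p = 0.0476, the smallest that permutation of 5 against 2 libraries can give). No other alternative brought that p under 0.05. Summed markers of classical monocytes were 1138 to 2434 CPM in the Cd79a gate of p21mTert against 2112 to 3668 in p21Het, and 1465 to 2234.5 against 1650 to 4303 in the Ncr1 gate. Their part in the Cdkn1a difference was not tested.

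Cells with a Cdkn1a UMI were then separated from those without, a split chosen after seeing the data. Among immune cells with a Cdkn1a UMI, Tert was at 1.94, 4.01, 2.94, 3.54 and 3.46 CPM in p21mTert and 0.232, 0.586 and 0.220 in p21Het (192 UMIs against 22). Among those without, it was at 1.86, 1.43, 1.65, 0.970 and 1.09 CPM against 0.773, 1.203 and 0.669 (137 against 50). The groups were apart in the first set and overlapped in the second. The log2 differences were 1.62 (exact permutation p = 0.0179, adjusted over 15 tests 0.0893) and 0.35 (p = 0.0893, adjusted 0.134). In p21mTert, Tert was higher in cells with than without a Cdkn1a UMI in 5 of 5 libraries, by 0.04 to 1.205 on the log2 scale, and in p21Het it was lower in 3 of 3, by -0.53 to -0.45. The difference between these differences was 1.28 (exact permutation p = 0.0357, adjusted 0.107, and unadjusted 0.0571 without p21mTert_2, p21mTert_3, p21mTert_4 or p21mTert_5). WT had 0.298 CPM with and 1.33 without a Cdkn1a UMI, in the order of p21Het.

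The split follows lineage and depth as well as Cdkn1a. Cells with a Cdkn1a UMI were mostly deeper (median 9442 to 12748 UMIs per library) than those without (3818 to 5284). Within the myeloid gates, Tert was at 1.83 to 4.91 CPM with a Cdkn1a UMI in p21mTert and 0 to 0.622 in p21Het (108 UMIs against 6). Without one it was at 0.494 to 2.84 CPM against 0 to 1.10 (21 against 5). The difference between these 2 differences was 1.08 within myeloid cells (exact permutation p = 0.0714) and 0.54 within lymphoid cells (p = 0.25), so neither passed. Per 100 Cdkn1a UMIs, immune cells had 1.56 to 2.10 Tert UMIs in p21mTert, 0.236 to 0.523 in p21Het and 0.683 in WT.

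**Figure D2:**
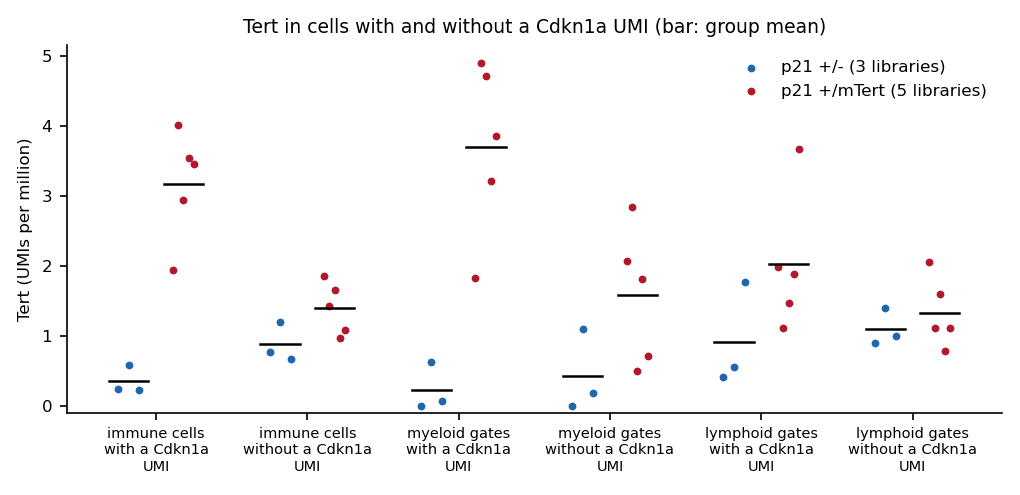
Tert in CPM in cells with and without a Cdkn1a UMI, for all immune cells, the myeloid gates and the lymphoid gates. Points are libraries (blue p21 +/-, red p21 +/mTert) and bars group means: in immune cells with a Cdkn1a UMI the red points lie at 1.94 to 4.01 and the blue at 0.220 to 0.586.

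The rest of the telomerase and p53 pathways showed little. Gene lists here and below were chosen with earlier results of these data known. Counts of their members above or below 0 are therefore description and not a test. Of 15 genes of telomerase and shelterin (the protein complex that caps telomeres), 14 were tested in immune cells and 0 called. Their log2 fold change was above 0 in 10, with a median of 0.09 against -0.01 over all 15558 genes, of which 47.9% were above 0. Of 19 tested p53 targets 0 were called and 7 had a log2 fold change above 0, with a median of -0.05. Ccng1 (cyclin G1) was at 41.3 ± 4.24 CPM (SD, n = 5) against 46.6 ± 4.72 (SD, n = 3). Phlda3, an inhibitor of Akt signalling, was at 15.5 ± 3.61 against 21.9 ± 10.7 CPM. Of 7 CDK inhibitors 0 were called in immune cells (0.0386% of all genes were), and Cdkn1a was the only one whose libraries did not overlap, where 1.66% of all genes were lower and 3.49% higher without overlap. In the Cd3e gate Cdkn2a (p16 and Arf) was at 3.53, 2.62, 4.70, 3.23 and 4.96 CPM against 1.30, 1.85 and 1.90. The groups were separate, as in 1.74% of all genes of the gate in this direction, on few UMIs (157 against 37), and the gene was not called (edgeR adjusted p = 0.691). Proliferation genes had 20 tested members in immune cells, 0 called and 16 above 0, with a median of 0.08. The share of immune cells with an Mki67 UMI was 4.04% ± 1.27 (SD, n = 5) against 4.66% ± 3.00 (SD, n = 3).

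Across all genes, edgeR called 6 of 15558 tested genes in immune cells (0.0386%), 2 higher and 4 lower in p21mTert at an adjusted p under 0.05. Wdfy1 encodes an endosomal adaptor of Toll-like receptors 3 and 4 (chromosome 1, 79702262 to 79776143). Its levels in immune cells were 36.4, 31.5, 29.7, 34.1 and 36.3 CPM in p21mTert against 20.7, 12.96 and 16.9 in p21Het, and 19.5 in WT. The log2 fold change was 0.96 (SE 0.12, edgeR adjusted p = 0.0482). Its libraries did not overlap in 7 of 7 gates, which share cells, with log2 fold changes from 0.75 to 1.39. By gate, 0.85% to 2.37% of all genes were higher without overlap. Cells without Ptprc differed as well, with 66.3 CPM of Wdfy1 on average in p21mTert against 26.4 in p21Het (1.30, edgeR adjusted p = 0.00399, called). Wdfy1 was called in the F13a1 and Cd79a gates. In the F13a1 gate Wdfy1 was at 43.3, 36.5, 36.9, 37.7 and 40.9 CPM against 17.2, 15.0 and 14.1 (log2 fold change 1.39, SE 0.12, adjusted p = 0.00333). WT had 15.7 CPM there, with p21Het. The call in immune cells was lost without any one of the libraries other than p21Het_1 (adjusted p 0.0747 to 0.208), and in the Cd79a gate (adjusted p = 0.0384) without any library other than p21mTert_1 (0.0826 to 0.135). In the F13a1 gate it held without any one library, but was lost with all 10 replicated libraries (adjusted p = 0.0760, log2 fold change 1.39) and among cells of a single gate (0.122, 1.81).

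The other called genes of immune cells have group means below 10 CPM and were chosen for the text after their values were seen. Camk2b, a subunit of the calcium- and calmodulin-dependent kinase II (chromosome 11, 5969644 to 6066362), was at 11.01, 10.2, 7.60, 11.3 and 8.81 CPM against 4.00, 3.18 and 3.74. The change was 1.38 in log2 (SE 0.15, edgeR adjusted p = 0.0202), and WT had 6.07 CPM, between the groups. Of the 7 gates, the Ncr1 gate had the highest level, 67.4 ± 23.1 CPM (SD, n = 5) against 30.9 ± 6.36 (SD, n = 3), not called there. Lrmda, known from pigment cell differentiation (chromosome 14, 22019712 to 23056085), was at 0.544, 0.510, 0.545, 0.387 and 0.194 CPM against 5.44, 5.80 and 4.35. The change was -3.58 in log2 (SE 0.28, edgeR adjusted p = 0.00348) with WT at 3.19 CPM. It was also called in the Csf3r gate, the only called gene of 11783 there (0.00849%, with 5.72% at an unadjusted p under 0.05), at 1.04, 0.724, 1.23, 0.592 and 0.326 CPM against 8.11, 7.17 and 6.41 (-3.27, adjusted p = 0.0289). In the Csf3r gate 0.577% of all genes were lower and 2.03% higher without overlap. The Csf3r call was lost without any library other than p21mTert_3, with adjusted p from 0.0501 to 0.205.

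The remaining 3 are gene models in regions of related genes. Gm20478 is annotated as antisense (chromosome 17, 36167982 to 36171805), 7.07 Mb from Cdkn1a, and overlaps Gm8909 of the class I region. It was at 0.064, 0.0537, 0.0321, 0.0646 and 0.0388 CPM in p21mTert against 1.75, 2.24 and 1.99 in p21Het (8 UMIs against 233, log2 fold change -5.24, SE 0.28, edgeR adjusted p = 0.000263). WT had 0.075 CPM, with p21mTert. A930015D03Rik, antisense to H2-T24, H2-T23 and H2-T22 on the same chromosome (35994453 to 36038435), was at 1.31, 1.99, 1.60, 1.29 and 1.75 CPM against 5.41, 6.34 and 7.38. Its log2 fold change was -2.05 (adjusted p = 0.0202), and WT, at 1.57 CPM, was again with p21mTert. Gm16867 lies on chromosome 14 (69363504 to 69503362), and its 447 UMIs were all from p21Het, with 0 from p21mTert. Taking 3 counts over the group as the floor, it was at least 202.5-fold lower in p21mTert (edgeR adjusted p = 0.0117), and WT had 4.50 CPM. The 3 models overlap other genes and have close relatives, and whether the counting used strand is not given in the sources used here, so their counts are uncertain. Without p21mTert_1, p21mTert_3, p21mTert_4, p21mTert_5, p21Het_2 or p21Het_3, A930015D03Rik lost its call (up to 0.0974). Camk2b lost its call without p21mTert_1, p21mTert_2, p21mTert_4, p21mTert_5, p21Het_2 or p21Het_3 (up to 0.117), and Gm16867 without p21Het_2 or p21Het_3 (0.0892 and 0.0821) and with all 10 replicated libraries (0.385). Gm20478 and Lrmda kept theirs without any one library. In cells without Ptprc, Camk2b (log2 fold change 1.38, edgeR adjusted p = 0.0294), Lrmda (-2.57, 0.00270) and Gm16867 (-7.55, 0.00399) were also called. Gm20478 (-3.96, 0.0591) and A930015D03Rik (-1.32, 0.785) were lower in those cells but not called. With deposit as a term in the fit, 3 of the 6 genes stayed called (Gm20478, Lrmda and A930015D03Rik), and among the later deposit alone 1 (Gm20478). There the log2 fold changes of Lrmda (-3.67) and A930015D03Rik (-2.12) were near those of all 8 libraries (both at edgeR adjusted p = 0.0696). Within 10 Mb of Cdkn1a, 2 of 390 tested genes were called in immune cells, against 4 of 15168 elsewhere, and 12.3% had an unadjusted p under 0.05, against 11.2%. Both called genes of the Cd3e gate lay there (2 of 332, against 0 of 12272 elsewhere). In each of the 7 gates the share with an unadjusted p under 0.05 was higher near Cdkn1a than elsewhere, most in the Treml4 gate (12.8% against 6.71%). These shares were not tested.

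**Figure D3:**
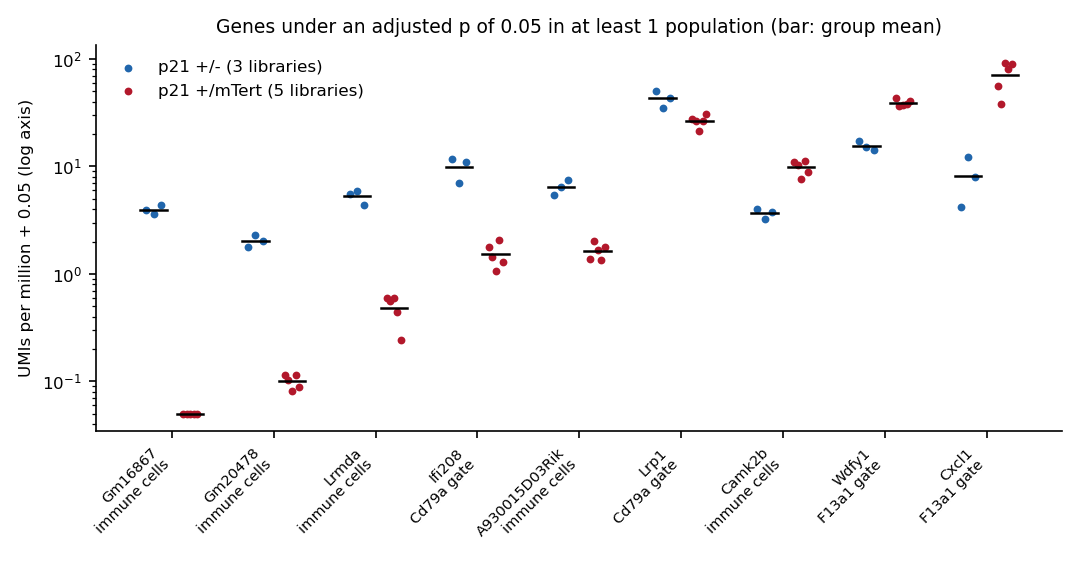
CPM plus 0.05 on a log axis for 9 of the 10 genes with an adjusted p under 0.05 in at least 1 population, each in the population where its p was smallest. Points are libraries (blue p21 +/-, red p21 +/mTert) and bars group means: the 2 colours do not overlap for any of the 9 genes.

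The Cd79a gate of B cells also held plasma cell RNA. Plasma cell markers summed to 16071 to 62700 CPM in p21mTert and 13340, 112258 and 30805 in p21Het. B cell markers summed to 3298 to 5372 CPM against 4901, 2567 and 4171. Their part in the values of this gate was not tested. The gate gave 6 called genes of 12900 tested (0.0465%, with 6.94% at an unadjusted p under 0.05), 1 higher and 5 lower. Among them were Wdfy1, Gm20478 and Gm16867 as above, Ifi208 and Lrp1. Here Gm20478 lost its call without p21mTert_3, p21mTert_4, p21mTert_5, p21Het_2 or p21Het_3 (edgeR adjusted p up to 0.102), and Gm16867 without the same p21mTert libraries or any p21Het library (up to 0.135). Ifi208, of the PYHIN family of interferon-inducible sensors of DNA (chromosome 1, 173673675 to 173698395), was at 1.74, 1.38, 1.005, 2.02 and 1.25 CPM against 11.6, 6.92 and 10.85. Every p21mTert library was well below every p21Het library, as in 1.33% of all genes of the gate, and 1.32% were higher without overlap. The log2 fold change was -2.73 (SE 0.23, edgeR adjusted p = 0.00619, and 0.0582 without p21Het_3), with WT at 8.91 CPM. The call was also lost with all 10 replicated libraries (0.0606, log2 fold change -2.72) and in the later deposit alone (0.0721, -2.71). The levels in the Cd3e gate were 16.96, 16.0, 14.3, 16.5 and 19.3 CPM against 34.8, 20.7 and 28.9. There the log2 fold change was -0.74 and the gene was not called (adjusted p = 0.289). Relatives of Ifi208 can share reads with it. It was the only called member of 12 tested PYHIN genes, of which 4 had a log2 fold change above 0.

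Lrp1, a receptor for lipoproteins and dying cells that macrophages express, was at 27.5, 26.6, 21.2, 26.3 and 30.9 CPM in the Cd79a gate against 49.9, 35.2 and 43.3 (-0.71, SE 0.09, edgeR adjusted p = 0.0384). Its libraries did not overlap between the groups. All 10 C1q macrophage markers had a log2 fold change below 0 in the Cd79a gate, and their summed level was 442 to 822 CPM in p21mTert against 693 to 1040 in p21Het. None of the 10 was at 0. Among B cells defined by at least 3 Cd79a and 1 Ms4a1 UMIs, 0.164% to 0.648% of cells held an F13a1 UMI in p21mTert and 1.11% to 1.86% in p21Het. The shares with a UMI of C1qa overlapped between the groups (0.860% to 1.97% against 1.01% to 3.12%), as did those of Csf3r and Treml4. When cells in a second gate were left out, the adjusted p of Lrp1 was 1.00. Lrp1 also lost its call without any library other than p21mTert_1 (up to 0.180).

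The same pattern ran through the list of macrophage lipid and lysosome genes (such as Apoe, Ctsd and Fabp5), many of which phagocytes express strongly. Lysosomal members such as Ctsd, a protease, are also made by lymphocytes. Of 20 members tested in the Cd79a gate 20 had a log2 fold change below 0, with a median of -0.87 against -0.00 over all genes and 0 called. Over all genes, 49.5% were above 0 in the Cd79a gate and 49.5% in the Ncr1 gate. The counts were 19 of 20 in the Cd3e gate (median -0.77) and 17 of 18 in the Ncr1 gate (-0.51). In the myeloid gates the medians were -0.13 (Csf3r), -0.00 (F13a1), 0.01 (Treml4) and -0.07 (C1qa). The elastase Mmp12, a product of alveolar macrophages, was at 2.96, 0.197, 1.51, 1.39 and 2.50 CPM in the Cd79a gate against 16.2, 19.1 and 12.7. It was lower in 5 of 5 libraries but not called (-3.31, edgeR adjusted p = 0.0764). Alveolar macrophage markers summed to 315 to 1608 CPM in p21mTert and 765 to 3069 in p21Het in that gate, and to 135 to 980 against 206 to 2705 in the Cd3e gate. The part of macrophage RNA in these values was not tested.

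The F13a1 gate had 2 called genes of 10067 (0.0199%, with 5.82% at an unadjusted p under 0.05), Wdfy1 (above) and Cxcl1. Cxcl1, a chemokine that attracts neutrophils through Cxcr2 (chromosome 5, 90891241 to 90893115), was at 55.7, 38.2, 91.5, 80.6 and 89.0 CPM in p21mTert against 4.18, 12.1 and 7.94 in p21Het. Every p21mTert library stood clear of every p21Het library. The log2 fold change was 3.21 (SE 0.36, edgeR adjusted p = 0.0216), and WT had 19.3 CPM. The call was lost without p21Het_1, p21Het_3, p21mTert_4 or p21mTert_5 (adjusted p 0.0613 to 0.0982), with all 10 replicated libraries (0.0566) and without doublets (0.0503). Without any one library the log2 fold change lay between 2.92 and 3.48.

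Nearly all of this Cxcl1 came from cells that also held C1qa. Of 1004 Cxcl1 UMIs in the F13a1 gate of the 8 libraries, 974 (97.0%) lay in cells with a C1qa UMI, which were 10.2%, 15.9%, 33.6%, 16.0% and 24.6% of the gate in p21mTert and 9.45%, 26.2% and 11.8% in p21Het. In these cells Cxcl1 was at 493, 205, 223, 396 and 374 CPM against 45.04, 43.5 and 55.2. WT, at 272 CPM on 20 cells, lay within the p21mTert range. Only 31 to 45 cells per p21mTert library and 36 to 78 per p21Het library stand behind these levels. The log2 difference was 2.72 (exact permutation p = 0.0179, the smallest possible, adjusted over 15 tests 0.0893). In F13a1 cells without a C1qa UMI, Cxcl1 was at 2.86, 0.358, 0, 1.87 and 0.505 CPM against 0.506, 0 and 1.56, with no separation (p = 0.625, exact permutation). In C1qa cells without an F13a1 UMI it was at 86.5, 213, 208, 241 and 183 CPM against 71.9, 91.7 and 68.4. There p21mTert_1 lay within the p21Het range (log2 difference 1.19, exact permutation p = 0.0536, adjusted 0.115). In the whole C1qa gate Cxcl1 was at 155, 210, 211, 277 and 254 CPM against 65.0, 85.1 and 62.1 (log2 fold change 1.68, edgeR adjusted p = 0.0854). WT had 156 CPM there, with p21mTert. The libraries of p21mTert and p21Het did not overlap, as in 0.85% of all genes higher and 1.85% lower. The C1qa gate had 0 called genes of 10001 (0%), with 459 (4.59%) at an unadjusted p under 0.05 and 5 called by DESeq2.

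**Figure D4:**
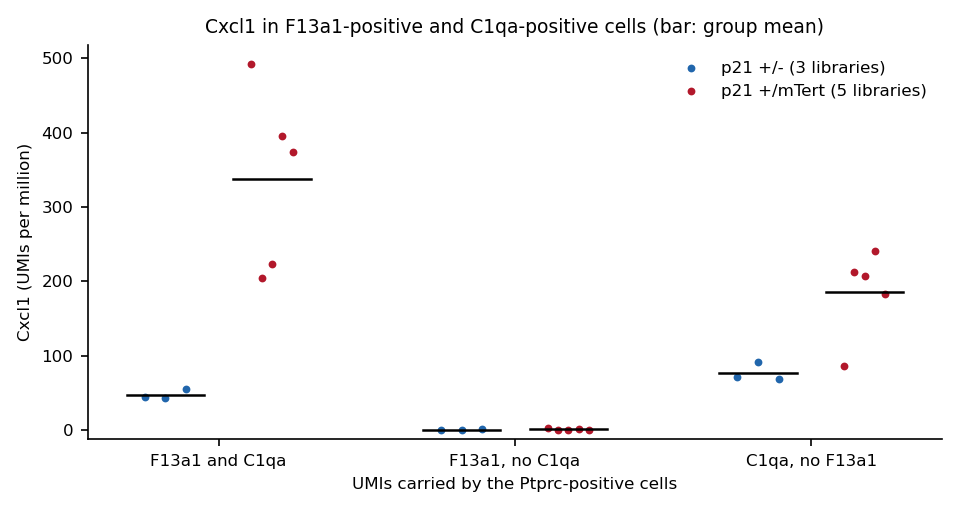
Cxcl1 in CPM in Ptprc-positive cells with UMIs of both F13a1 and C1qa, of F13a1 alone and of C1qa alone. Points are libraries (blue p21 +/-, red p21 +/mTert) and bars group means: among cells with both, the red points lie at 205 to 493 and the blue at 43.5 to 55.2, and with F13a1 alone all lie at or below 2.86.

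Other chemokines of the F13a1 gate pointed the same way without passing the test. Ccl4, a chemokine of activated myeloid and T cells, was at 237, 279, 193, 345 and 382 CPM against 121, 96.9 and 66.3, without overlap (log2 fold change 1.65, SE 0.24, edgeR adjusted p = 0.0895). WT had 266 CPM of Ccl4, with p21mTert. Ccl3, a close relative of Ccl4, was at 95.9, 187, 92.3, 232 and 160 CPM against 64.6, 59.6 and 28.4 (1.67, adjusted p = 0.533). WT had 67.9 CPM of Ccl3, between the groups. Of 24 tested inflammatory and senescence-associated factors, 1 was called (Cxcl1) and 21 had a log2 fold change above 0. Their median was 0.52, where 50.4% of all genes in the gate were above 0. Libraries of 4 members did not overlap and were higher in p21mTert, against 1.36% of all genes in that direction and 2.56% in the other. Interferon-stimulated genes had 26 of 28 above 0 (median 0.37, 0 called). The immediate early genes had 22 of 23 (0.38, 0 called), and the PYHIN family 11 of 11 (0.44, 0 called). Gbp2, an interferon-induced GTPase, was at 28.7, 47.6, 43.8, 42.6 and 48.6 CPM against 19.0, 22.3 and 23.04 (1.02, adjusted p = 0.282). In this gate the summed neutrophil markers were 428 to 2139 CPM in p21mTert against 3038 to 3253 in p21Het, and those of classical monocytes 4512 to 8372 against 8615 to 10075. The C1q macrophage markers were 7172 to 13160 against 4066 to 7841, with all 10 above 0 in fold change. The part of this makeup in the gene values was not tested.

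The Csf3r and Treml4 gates showed no called gene beyond Lrmda. The Treml4 gate had 0 called of 10779 (0%), with 740 genes (6.87%) at an unadjusted p under 0.05 and 43 called by DESeq2. The metal-binding Mt1 was at 474, 462, 564, 523 and 408 CPM there against 288, 280 and 358 (log2 fold change 0.64, edgeR adjusted p = 0.332). Abcg1, a cholesterol exporter, was at 406, 279, 283, 277 and 342 against 245, 207 and 205 CPM (0.52, adjusted p = 0.380). Neither gene overlapped between the groups (2.37% of all genes were higher without overlap and 1.30% lower), and neither passed. The Csf3r gate had Ptgs2 (cyclooxygenase-2) at 442, 396, 283, 304 and 379 CPM against 269, 113 and 238 (0.77, adjusted p = 0.776). Lcn2, an iron-scavenging granule protein of young neutrophils, was at 415, 450, 336, 318 and 604 CPM against 499, 732 and 1297. The groups overlapped, and p21Het_3 alone was above 1000 (-1.07, adjusted p = 0.739). C1q macrophage markers in the Csf3r gate summed to 3007 to 6142 CPM in p21mTert and 2862 to 5480 in p21Het, above the sums in all immune cells, and on average 27.8% and 27.0% of its cells held a Treml4 UMI. Their part in these values was not tested.

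Genes of cytotoxic lymphocytes had higher values in p21mTert without any being called. Of 19 cytotoxic effector genes in immune cells, 18 had a log2 fold change above 0 (47.9% of all genes did), with a median of 0.83. Libraries of 8 members did not overlap and were higher, against 3.49% of all genes. Nkg7, a granule protein of killer cells, was at 208, 282, 202, 244 and 264 CPM against 143, 101 and 126 (log2 fold change 0.93, SE 0.16, edgeR adjusted p = 0.111). Eomes, a transcription factor of memory CD8 T and natural killer cells, was at 39.9, 34.1, 37.9, 33.2 and 28.2 CPM against 22.99, 14.8 and 16.2 (0.92, adjusted p = 0.107). Both genes were separated between the groups. Summed T cell markers were 1109 to 1518 CPM in immune cells of p21mTert against 821 to 877 in p21Het, and those of classical monocytes 2613 to 5501 against 5035 to 12164. The summed natural killer cell markers, whose cells also make Nkg7 and Eomes, were 442 to 835 CPM against 253 to 413, without overlap. In these sums a larger share of T or natural killer cells and more RNA per cell cannot be told apart.

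The Cd3e gate had 2 called genes of 12604 (0.0159%), Gm20478 (-5.51, edgeR adjusted p = 0.0389) and A930015D03Rik (-2.60, adjusted p = 0.0427), and both calls were lost without any one library other than p21Het_1 (up to 0.217). An unadjusted p under 0.05 was found for 5.76% of genes. Of 18 cytotoxic genes tested, 17 had a log2 fold change above 0 (49.1% of all genes did), with a median of 0.57 and 0 called. Xcl1, a chemokine that attracts cross-presenting dendritic cells, was at 58.3, 51.4, 74.4, 47.2 and 65.2 CPM against 44.1, 28.3 and 28.8 (0.84, SE 0.18, adjusted p = 0.477). Ccl5, a chemokine stored by effector T cells, was at 4091, 6934, 4108, 4052 and 7572 CPM against 3309, 2677 and 3972 (0.70, adjusted p = 0.847). Neither of these overlapped between the groups. Of all genes in the gate, 1.74% were likewise higher without overlap and 1.39% lower. Klrb1f, a lectin-like receptor, was at 11.4, 13.1, 12.5, 11.5 and 14.5 CPM against 8.33, 6.36 and 5.02 (0.96, adjusted p = 0.289). The summed natural killer markers in this gate were 487 to 1112 CPM against 421 to 912, overlapping.

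Cytotoxic genes were also above 0 in gates of cells that do not make them. The list had 17 of 17 tested members above 0 in the Csf3r gate (median 0.91, with 47.0% of all genes above 0), 7 of 7 in the Treml4 gate (1.05, with 51.1%) and 15 of 18 in the Cd79a gate (0.50). Natural killer cells of the Ncr1 gate, which do make them, had a median of 0.17 with 13 of 17 above 0. Their Gzma, a granzyme, was at 7876, 8212, 9337, 9114 and 9970 CPM against 5467, 7455 and 8346, and the groups overlapped (0.33, edgeR adjusted p = 1.00). The Ncr1 gate had 0 called of 7277 (0%), with 285 (3.92%) at an unadjusted p under 0.05 and 1 called by DESeq2. The part of free RNA or of doublets in the cytotoxic values of other gates was not tested.

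The share of Cd3e cells with a UMI of Gzmk, the granzyme of memory-type T cells that builds up with age, was higher in p21mTert. It was 11.7%, 19.0%, 18.0%, 14.1% and 25.2% in p21mTert against 5.34%, 10.5% and 9.62% in p21Het, and 7.17% in WT (exact 95% interval 5.61% to 8.996%). The groups did not overlap, with means of 17.6% ± 5.20 (SD, n = 5) and 8.50% ± 2.77 (SD, n = 3). The exact permutation p was 0.0357, and 0.214 adjusted over 6 makeup shares, so the difference did not pass. With each cell thinned to 1000 UMIs the means were 8.15% and 4.40% (p = 0.143, exact permutation). Of B cells, which should lack Gzmk, 0.387% on average held a Gzmk UMI in p21mTert and 0.265% in p21Het. Leaving out any one library moved the exact permutation p to between 0.0571 and 0.143.

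Split by receptor UMIs, after seeing the data, the Gzmk share among Cd8a-positive cells was 11.8%, 29.0%, 33.1%, 19.5% and 40.4% against 9.13%, 15.1% and 13.9%. Here p21mTert_1 was within the p21Het range (exact permutation p = 0.0893, adjusted over 15 tests 0.134). Among cells with a Cd4 and no Cd8a UMI it was 13.1%, 8.90%, 9.52%, 12.9% and 18.3% against 4.24%, 8.12% and 6.22%, without overlap (p = 0.0357, adjusted 0.107, exact permutation). Cells with neither had 10.8%, 8.43%, 15.0%, 10.98% and 9.50% against 3.42%, 9.0% and 8.41%. The largest differences thus lay in the Cd8a cells of p21mTert_2, p21mTert_3 and p21mTert_5, and none of the 3 passed after adjustment. The Cd8a share itself was 37.1% ± 10.4 (SD, n = 5) against 30.9% ± 1.82 (SD, n = 3) of the Cd3e gate, and the Cd4 share 23.9% ± 6.30 against 29.4% ± 7.16. Foxp3, the factor of regulatory T cells, was found in 4.73% ± 1.99 against 7.14% ± 2.86, and Trdc of gamma delta T cells in 6.74% ± 3.14 against 8.71% ± 4.03. None of the 6 makeup shares passed after adjustment.

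**Figure D5:**
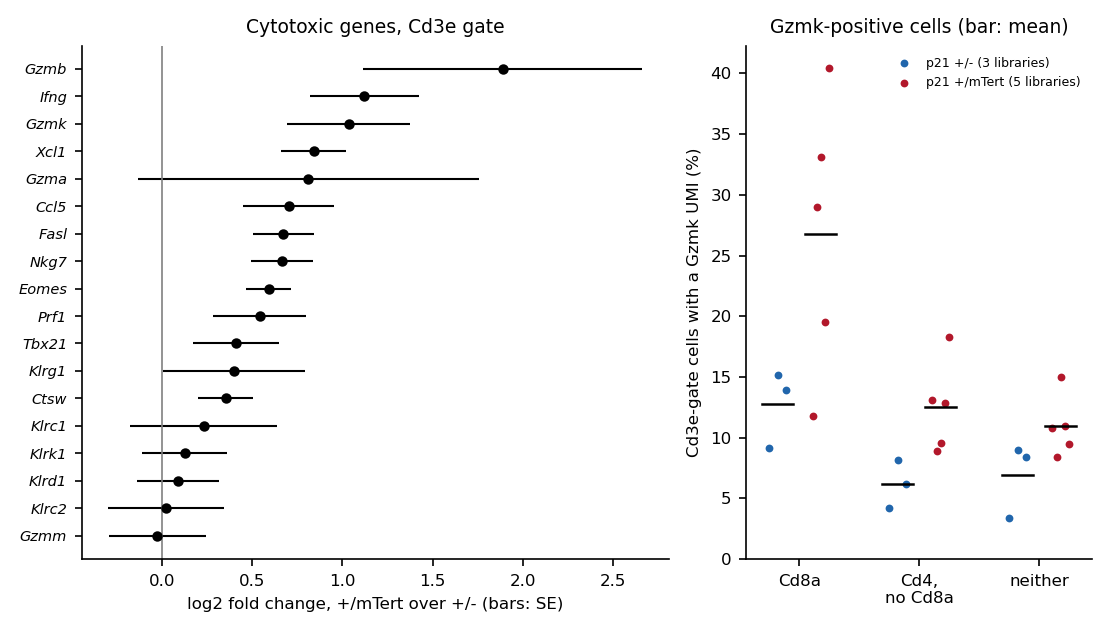
Left, edgeR log2 fold change of 18 cytotoxic genes in the Cd3e gate, p21 +/mTert over p21 +/-, with standard errors as bars. Right, percent of Cd3e-gate cells with a Gzmk UMI among cells with Cd8a, with Cd4 and no Cd8a, or with neither, by library (blue +/-, red +/mTert) with group means as bars: 17 of 18 genes lie above 0, and the red points reach 40.4% in Cd8a cells.

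Lineage shares did not pass the test either. T cells (Cd3e gate) were 27.8%, 29.1%, 33.5%, 30.4% and 21.8% of immune cells in p21mTert against 16.8%, 25.5% and 18.7% in p21Het. The library p21mTert_5 lay below p21Het_2, and the means were 28.5% ± 4.32 (SD, n = 5) and 20.3% ± 4.58 (SD, n = 3). The exact permutation p was 0.0714 (0.429 adjusted over 8 shares). It was 0.0357 on thinned cells, 0.0286 without p21mTert_5 and 0.0476 without p21Het_2, the last 2 being the smallest those designs allow. In the other alternatives it was not under 0.05: without doublets, permuted within deposits, in the later deposit alone and without any other library. Cells of the F13a1 gate were 5.12% ± 1.26 against 8.87% ± 4.95 of immune cells (exact permutation p = 0.107). Among the alternatives that p was under 0.05 only without p21Het_2 (0.0476). Cells of the Cd79a gate were 36.0% ± 2.66 against 31.7% ± 16.7, and those of the Csf3r gate 17.4% ± 4.36 against 24.3% ± 18.0. The wide p21Het spread came from p21Het_1, with 50.8% in the Cd79a gate, and p21Het_3, with 44.7% in the Csf3r gate. Without p21Het_3 the Csf3r difference turned from -6.89 to 3.35 percentage points and the Cd79a difference from 4.36 to -1.34. Without p21Het_1 the Cd79a difference was 13.9 points and the Treml4 difference -4.17 (both with an exact permutation p of 0.0476). The immune share of kept cells was 66.8% ± 7.59 against 71.0% ± 11.4 (p = 0.5, exact permutation), and the difference changed sign without p21Het_3, to 0.177 points.

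Of the genes of MHC class I presentation and of the interferon gamma response, 0 were called in immune cells or in the Cd3e gate. All 16 interferon-gamma GTPases (guanylate-binding proteins and related GTPases that act on intracellular microbes) had a log2 fold change above 0 in immune cells, with a median of 0.29, where 47.9% of all genes were above 0. As given above, summed T cell markers were also higher in these immune cells. Their part in these values was not tested. Gbp4 was at 26.5, 21.3, 23.03, 22.8 and 20.4 CPM against 21.2, 14.4 and 13.2, overlapping (edgeR adjusted p = 0.343). In the Cd3e gate 16 of 16 were again above 0 (median 0.16). Of 19 genes of MHC class I and peptide loading, 14 were above 0 in immune cells (median 0.13) and 17 in the Cd3e gate (0.14), with 0 called in either. H2-M3, which presents formylated bacterial peptides and lies 8.17 Mb from Cdkn1a, was at 45.5, 40.2, 49.0, 46.5 and 44.5 CPM in immune cells against 35.7, 31.2 and 28.3. The groups were apart (0.47 in log2 fold change, SE 0.09, edgeR adjusted p = 0.154), and WT, at 49.0 CPM, was with p21mTert. Of all genes in immune cells, 3.49% were likewise higher without overlap and 1.66% lower. Psmb10, a subunit of the immunoproteasome, was at 113, 123, 141, 128 and 136 CPM in the Cd3e gate against 103, 96.4 and 94.6 (0.40, adjusted p = 0.646). In the Cd79a gate, 18 of 20 proliferation genes were above 0 (median 0.47, 0 called), where 49.5% of all genes were above 0 and 0.0465% called.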

How the data were processed

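Single-cell suspensions of whole mouse lung were sequenced with a 10x Genomics 3′ kit, and the deposited matrices hold UMI counts per gene and barcode (31053 genes), made by the authors with Cell Ranger on mm10, per the labels. Kept barcodes had between 1000 and 30000 UMIs, of which mitochondrial genes made up no more than 14%. UMIs were summed per library over Ptprc-positive cells, over cells without Ptprc and over gates of at least 1 UMI of a marker gene. Libraries are the replicates. Genes were tested with edgeR 4.0.16 (quasi-likelihood F-test after filterByExpr and TMM, R 4.3.3), with Benjamini-Hochberg adjustment over all genes tested and calls at an adjusted p under 0.05. Standard errors were derived from the F statistic. Single levels (log2 of CPM + 1, pseudocount 1) and shares were compared by 2-sided exact permutation of libraries (scipy 1.17.1). Doublets were kept: Scrublet's own threshold marked 0.0117% to 2.69% of cells, so the top-scored 4.55% to 8.42% were removed as an alternative. Other alternatives were DESeq2 1.42.0, its size factors in edgeR, no low-count filter, all 10 replicated libraries, a deposit term, the later deposit alone, a stricter Ptprc gate, single-gate cells, thinning, pseudocounts, a replicate block and leaving out each library. The fit was tested on simulated data. The members and gene lists were chosen with earlier results of these data known. Named genes are Tert and Cdkn1a, called genes whose libraries do not overlap and whose higher group averages 10 CPM or more, and per list up to 4 called members, or otherwise up to 2 with the smallest p. Gene positions are those of GENCODE M21 (GRCm38). Intervals cover counting error only. Some genes that the rule names are not reported here.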

Additional observations from a re-analysis of the deposited data

Results flagged for a closer look

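In 2 gene and population pairs, 1 p21mTert library lay far from the other 4 of its group. Chance alone would flag about 1 in 20 groups, and 101 were examined. Nlrc5, the transactivator of MHC class I genes, was at 30.11 CPM in immune cells of p21mTert_1, against 23.1 to 24.99 in the others. Lgals3, which encodes galectin-3, was at 217.7 CPM in the Cd79a gate of p21mTert_1, against 94.19 to 127.

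The genotype difference of Tert was larger in myeloid than in lymphoid gates by 1.45 on the log2(CPM + 1) scale (exact permutation p = 0.0179, the smallest that 5 against 3 libraries can give).

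The series holds 2 libraries of a further mTert genotype, p21mTertCD_1 and p21mTertCD_2, that enter no comparison of the report other than the alternative fit with all 10 replicated libraries. Tert in their immune cells was at 2.52 and 1.64 CPM, both above the 0.418 to 0.873 CPM of p21Het.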

How the results depend on the processing

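DESeq2 called more genes than edgeR: 184 in immune cells, 28 in the Cd3e, 77 in the Cd79a, 1 in the Ncr1, 30 in the Csf3r, 27 in the F13a1, 43 in the Treml4 and 5 in the C1qa gate. With no filter on low counts, edgeR called 5 (Cd3e), 7 (Ncr1), 2 (Csf3r), 6 (F13a1), 12 (Treml4) and 2 (C1qa). With all 10 replicated libraries it called 1 (Cd3e), 1 (Cd79a), 0 (Csf3r) and 0 (F13a1). With a deposit term it called 3 in immune cells, 2 (Cd79a), 0 (Csf3r) and 1 (C1qa). In the later deposit alone it called 1 in immune cells, 1 (Cd3e), 0 (Cd79a), 1 (Ncr1), 13 (Csf3r) and 7 (F13a1). Without doublets it called 1 (F13a1) and 5 (Treml4). Among cells of a single gate it called 3 (Cd79a), 0 (Csf3r), 0 (F13a1) and 6 (C1qa). Leaving out 1 library gave 2 to 18 called genes in immune cells (18 without p21Het_1), 0 to 2 (Cd3e), 0 to 17 (Cd79a, 17 without p21mTert_1), 0 to 2 (Ncr1), 0 to 1 (Csf3r), 1 to 4 (F13a1), 0 to 1 (Treml4) and 0 to 1 (C1qa). The cause of these changes was not tested.

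With the replicate number as a block, edgeR called 0 genes in immune cells, Cd3e, Cd79a, Csf3r and F13a1 gates and 3 in the Ncr1 gate. Same-numbered libraries deviated together only for number 1 (r = 0.38, -0.10 and -0.27), so the numbers do not pair the libraries.

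On cells thinned to 1000 UMIs the Cd3e share differed by 5.37 points (exact permutation p = 0.0357) and the Gzmk share by 3.75 (p = 0.143). In the later deposit the Gzmk difference was 8.99 points and the Trdc difference 0.273. There the difference was 0.94 for Tert, -0.52 for Cdkn1a and 1.58 for the lineage difference of Tert, each at the smallest p exact permutation allows (0.0667). Near-zero values changed sign there: Cxcl1 in F13a1 cells without C1qa (-0.0400), Tert in lymphoid cells without Cdkn1a (-0.0383) and Tert in the Cd3e gate (-0.0616, and -0.15 without doublets). Without 1 library, share differences ranged, in points, from -3.23 to 0.468 (C1qa), 6.45 to 10.8 (Cd3e), -1.34 to 13.9 (Cd79a), -13.4 to 3.35 (Csf3r), -6.02 to -1.11 (F13a1), -4.17 to -0.568 (Treml4), -10.6 to 0.177 (immune), 7.18 to 10.6 (Gzmk), -1.80 to 1.07 (Mki67) and -3.20 to 0.354 (Trdc). Further ranges were -3.29 to -0.759 (Foxp3), -9.29 to -2.15 (Cd4), 2.75 to 8.95 (Cd8a) and 0.635 to 1.33 (Ncr1). The C1qa and Mki67 shares changed sign without p21Het_2 and Trdc without p21Het_1. Log2 differences ranged from 1.31 to 1.65 (lineage difference of Tert), 0.44 to 0.83 (of Cdkn1a), -0.13 to 0.0702 (Cdkn1a, Csf3r gate), -0.22 to 0.0547 (Cdkn1a, Treml4 gate), -0.0759 to 0.20 (Tert, Cd3e gate) and -0.0736 to 0.60 (Cxcl1 in F13a1 cells without C1qa).

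Tert rests on 329 and 72 UMIs in immune cells of the 2 groups, so its levels per gate are limited by counting, and the Ncr1 gate, with 87 to 203 cells a library, gives the least precise values.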
